A study of Mus musculus with 12 samples.

Results

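The aminoacyl-tRNA synthetases were followed in mouse small intestinal organoids that were treated with RANKL, with or without the compound CSRM617. They were taken from the raw count tables by symbol, as a letter for the amino acid followed by ars with or without a 1 or 2, plus Farsa, Farsb and Eprs. This gave 37 of the 55335 entries, the same 37 in both tables, of which 20 are cytosolic enzymes and 17, the symbols ending in 2, are mitochondrial. All 37 passed the filter on low counts in both comparisons. The rule itself reads symbols alone.

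RNA was sequenced from 12 libraries, 3 in each of 4 groups, after ribosomal RNA depletion of 1 µg of total RNA. All groups were grown from 1 organoid line of a female mouse, labelled line26 wild type, Lgr5GFPDTR/+, which carries 1 Lgr5 allele with green fluorescent protein and the diphtheria toxin receptor. The study concerned ONECUT2, a transcription factor, and the RANKL-dependent formation of enterocytes and M cells, the epithelial cells that sample antigen. Replicates are separate differentiation experiments on that line, so p-values measure the spread between experiments and not between animals. ENR control organoids were in medium with EGF, Noggin and R-spondin for 6 days. Organoids of the RANKL group were first kept for 3 days, per the labels, with 3 µM of the GSK3 inhibitor CHIR99021 and 1.5 mM of the histone deacetylase inhibitor valproic acid. After 1 day of ENR medium came 6 days with RANKL at 100 ng/mL, a cytokine that induces M cells. The sample names of the controls begin with CVENR, a prefix that no source used here spells out. Whether the ENR control organoids had also received CHIR99021 and valproic acid is not stated, so RANKL and this pretreatment cannot be told apart. The RANKL II group had the same pretreatment, day of ENR medium and RANKL treatment in the experiments with CSRM617. The RANKL+CSRM617 group had these too, and 40 µM CSRM617, known as an inhibitor of ONECUT2, was given together with RANKL.

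Aminoacyl-tRNA synthetases join each amino acid to its tRNA and so supply the ribosome. Cytosol and mitochondria use mostly separate enzymes, all encoded in the nucleus, while Gars and Kars each give both forms from 1 gene. Many cytosolic synthetase genes are known targets of ATF4, the transcription factor of the amino acid and integrated stress response, and some cytosolic enzymes are held together in the multisynthetase complex by the scaffolds Aimp1, Aimp2 and Eef1e1. In the intestinal epithelium charged tRNA serves both dividing crypt cells and secretory cells.

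The promoters of the synthetases were searched for the element through which ATF4 acts with C/EBP partners, written TGATGNAA, on both strands, because 12 of the 20 cytosolic enzymes stand on a list of ATF4 targets. RefSeq promoter sequences (GRCm38.p6, 250 bases before to 50 bases after the start) matched 27 of the 37 symbols. The element occurred in 5 of 8 cytosolic enzymes on the ATF4 list, in 0 of 5 other cytosolic enzymes and in 0 of 14 mitochondrial enzymes. Of all 32851 promoter sequences of this length, 1304 (3.969%) held it. This share counts single sequences, while an enzyme counted as matched if any of its sequences held the element. Cars, Lars, Nars and Wars, also on the ATF4 list, matched no promoter entry by symbol and were not searched. The 6 matches are shown on the strand of the gene with up to 20 bases on each side and the element in capitals, where TTNCATCA is its reverse complement. Bases past the start that follow the element are left out, though the window searched ran 50 bases past it. They lie at chr4:129189886-129189913 (plus strand) for Yars, chr6:55037951-55037998 (plus) for Gars, chr8:111033710-111033757 and chr8:111033831-111033858 (plus) for Aars, chr13:49682117-49682144 (plus) for Iars and chr15:11399659-11399693 (minus) for Tars.
Yars: agcggagcgacgagctcagcTGATGCAA
Gars: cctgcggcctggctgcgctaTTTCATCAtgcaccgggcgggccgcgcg
Aars, upstream match: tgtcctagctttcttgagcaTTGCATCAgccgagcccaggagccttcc
Aars, match after the start: acaaggcgtagcgggtcactTTTCATCA
Iars: tgagcctggcactgtcagtaTTGCATCA
Tars: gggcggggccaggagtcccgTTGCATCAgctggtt
Upstream and after refer to the RefSeq start of the window, which for Aars lies inside the gene span given below. The Yars and Iars elements also begin after their start. Aars was the only one of the 27 synthetases searched with 2 matches. A match describes letters in this window and not a bound site.

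Library totals were 5795541 to 7719157 counts in the ENR control and RANKL libraries and 8669153 to 14041947 in the RANKL II and RANKL+CSRM617 libraries, of which 11621 to 33697 fell on the synthetases. The ribosomal RNA loci Gm26917 and Gm42418 held 21.9% to 35.5% of the counts of each ENR control library and 9.71% to 10.7% in RANKL. In the second table they held 6.44% to 6.71% (RANKL II) and 15.3% to 15.8% (RANKL+CSRM617). Recomputing the scaling without these loci and the mitochondrial genes left the synthetase counts below as they were. Epithelial identity was checked on 7 markers, which summed to 3059 to 4657 CPM, the level after TMM scaling of library size, across the libraries, while 5 immune and 5 stromal or endothelial markers each summed to at most 3.20 CPM, and Col3a1 was at 0 counts in all 12 libraries. Exons of 14 synthetases overlap exons of a gene on the opposite strand. Among them are the mitochondrial enzymes Ears2, Cars2, Fars2 and Iars2, and Hars and Hars2 overlap each other. No source used here gives the strand setting of the counting, and the reads of such partners may not have been separated.

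Levels were compared between genes per kilobase of the longest coding transcript. In ENR control, Vars had the highest level at 62.8 ± 2.56 CPM per kb (SD, n = 3), followed by Gars at 58.2 ± 5.01, Qars at 57.2 ± 2.11 and Wars at 56.1 ± 0.924 CPM per kb. Vars and Gars did not differ beyond their spread, nor did Gars, Qars and Wars. The first 14 places were all held by cytosolic enzymes, and the highest mitochondrial enzymes were Iars2 at 21.8 ± 1.11 and Tars2 at 21.7 ± 0.975 CPM per kb, which charge isoleucine and threonine. Wars2, the mitochondrial tryptophan enzyme, was lowest at 3.29 ± 0.704 CPM per kb. Aars, the cytosolic alanine enzyme, stood 29th at 9.83 ± 0.571 CPM per kb. The single-exon gene Exosc6, on the same strand, lies wholly within the exons of Aars and is listed at 0 in all 12 libraries. No source used here says how reads from that stretch of 1326 bases were assigned. Over the other 4424 bases the level of Aars would be 12.8 CPM per kb, which would place it 26th. In RANKL II the leading levels were Gars at 54.5 ± 0.519, Qars at 53.6 ± 0.917 and Kars at 52.8 ± 0.672 CPM per kb. With CSRM617 the lysine enzyme Kars led at 60.7 ± 1.28 and the asparagine enzyme Nars followed at 58.0 ± 1.02 CPM per kb. The 2 tables are separate experiments, so levels of RANKL and RANKL II were not compared.

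The first comparison asked what RANKL treatment changed against ENR medium. Mitochondrial synthetase mRNAs were lower, while cytosolic ones moved both ways. Of the 17 mitochondrial enzymes, 9 fell and 0 rose (edgeR, adjusted p under 0.05), where 28% of the 13570 genes tested fell and 28.7% rose. All 17 mitochondrial log2 fold changes were negative, with a median of -0.40 against 0.0028 over all genes tested, of which 49.9% were negative. Of the 20 cytosolic enzymes, 4 rose and 4 fell, with a median of 0.03. In either direction 17 of 37 synthetases changed, below the 56.7% of all genes tested. Summed over the 16 mitochondrial enzymes other than Lars2, the level was 622 ± 17.7 CPM in ENR control and 474 ± 8.75 CPM in RANKL. The cytosolic sum was 1997 ± 50.0 and 1902 ± 49.7 CPM. The difference between compartments has no test, because genes are not replicates.

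**Figure D1:**
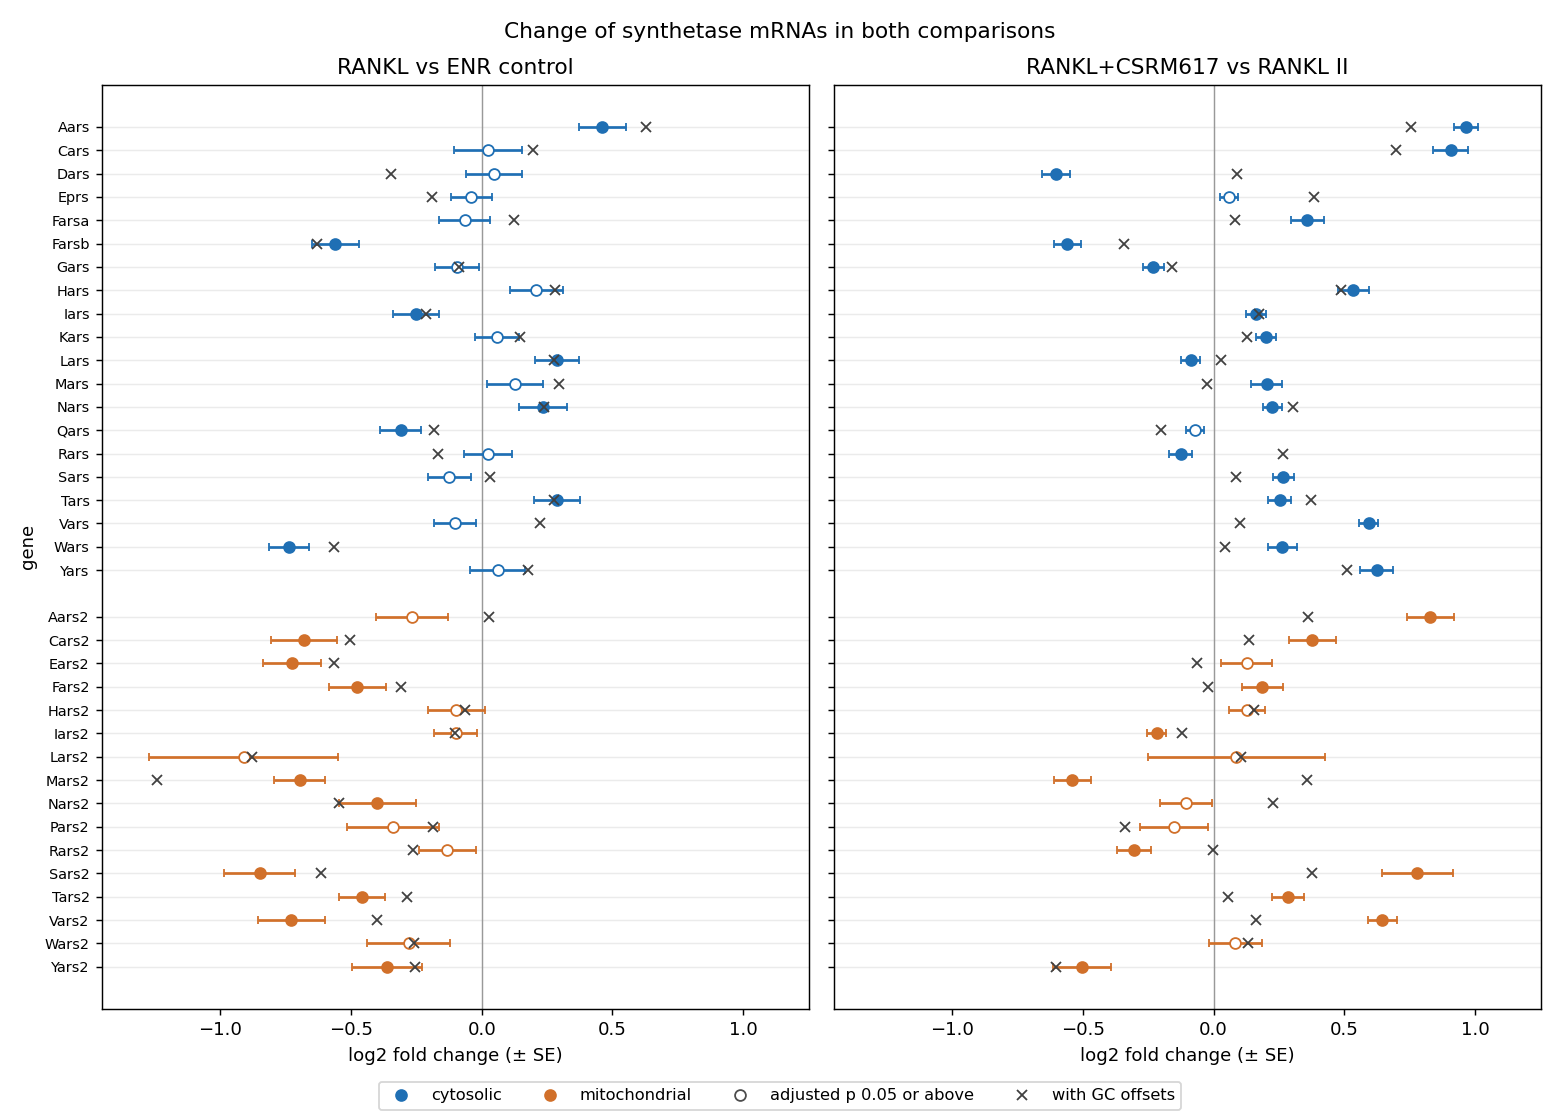
Log2 fold change of 36 synthetase mRNAs (points, with SE) in RANKL against ENR control (left) and RANKL+CSRM617 against RANKL II (right), 3 libraries a group. Filled points passed an adjusted p of 0.05 and crosses give the value with GC offsets. All 16 mitochondrial enzymes shown lie below 0 on the left, and on the right Aars and Cars lie farthest above it.

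The mitochondrial falls included the enzymes for serine, valine, glutamate, methionine and cysteine. Sars2 (chromosome 7, 28741992 to 28753871, plus strand, GRCm38, 16 exons), which charges mitochondrial serine tRNA, was at 18.4, 17.9 and 18.3 CPM in ENR control and 10.7, 10.4 and 9.07 CPM in RANKL. All 3 RANKL libraries lay below all 3 controls. The difference was -0.85 ± 0.14 on the log2 scale (± SE, edgeR adjusted p = 6.6e-05), a ratio of 0.555. Vars2 (chromosome 17, 35655634 to 35667592, minus strand) had 97.0, 70.8 and 108 CPM in ENR control and 50.5, 55.2 and 59.3 CPM in RANKL. Its control libraries were spread widely, and its groups did not overlap (log2 -0.73 ± 0.13, edgeR adjusted p = 0.000169, and -0.40 with the GC offsets described below). Mars2 (chromosome 1, 55237177 to 55248470, plus strand, 1 exon) had 50.7, 51.7 and 54.4 CPM in ENR control and 29.6, 34.0 and 33.0 CPM in RANKL (log2 -0.70 ± 0.10, edgeR adjusted p = 1.89e-05). It carries the lowest transcript GC content of the 37, 38.8%, and its fall was -1.24 with GC offsets. Ears2, the glutamate enzyme, fell from 31.0 ± 1.00 to 18.7 ± 1.45 CPM (log2 -0.72). Cars2, the cysteine enzyme, fell from 25.6 ± 1.36 to 15.9 ± 1.92 CPM (log2 -0.68).

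The other falls past the threshold in this compartment were smaller. Fars2 changed by -0.48, Tars2 by -0.46, Nars2 by -0.40 and Yars2 by -0.36 on the log2 scale. Tars2 went to -0.28 and Fars2 to -0.31 with GC offsets, both still called. Nars2 lost its call with DESeq2 and without ENR control replicate 2 or 3 or RANKL replicate 2. Over all 15 alternatives its value lay between -0.56 and -0.30. Yars2 lost its call with GC offsets (-0.26), with DESeq2 and without ENR control replicate 1 or RANKL replicate 2 or 3. The 8 enzymes that did not pass ranged from -0.10 for Hars2 to -0.91 for Lars2, which is treated separately. Iars2 was at 119 ± 6.07 CPM in ENR control and 111 ± 5.19 CPM in RANKL (log2 -0.10, edgeR adjusted p = 0.317). Pars2, the mitochondrial proline enzyme, had 13.2, 12.7 and 8.45 CPM against 8.98, 8.82 and 9.89 CPM, with overlapping groups (log2 -0.34, edgeR adjusted p = 0.111).

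Among cytosolic enzymes the largest change was a fall of Wars (chromosome 12, 108860030 to 108894174, minus strand, 10 exons), the interferon-inducible tryptophan enzyme. Wars was at 161, 156 and 159 CPM in ENR control and 93.6, 95.3 and 97.1 CPM in RANKL. The replicates of each group lay close together and the groups were far apart (log2 -0.74 ± 0.08, edgeR adjusted p = 8.19e-07). Farsb (chromosome 1, 78417975 to 78488897, minus strand), the beta subunit of phenylalanine-tRNA synthetase, had 86.6, 104 and 99.2 CPM in ENR control and 62.9, 66.5 and 67.8 CPM in RANKL (log2 -0.56 ± 0.09, edgeR adjusted p = 7.47e-05). Its partner subunit Farsa had 48.2, 41.4 and 45.7 CPM against 42.9, 41.6 and 44.4 CPM, with overlapping groups (log2 -0.07, edgeR adjusted p = 0.586). The subunits of this enzyme thus differed in their call, and the difference between them was not tested. Sgpp2, which overlaps Farsb on the opposite strand, was also lower (log2 -0.34), and its part in the Farsb value was not tested. Qars (log2 -0.31) and Iars (log2 -0.25) were the remaining cytosolic falls, and Iars lost its call without RANKL replicate 2 or 3.

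The cytosolic rises were Aars, Tars, Lars and Nars. All 4 are on the ATF4 list of 12 cytosolic enzymes, of which 2 others, Wars and Iars, fell and 6 did not pass. Over all genes tested 28.7% rose and 28% fell, so 4 rises of 12 lie near the background. Aars (chromosome 8, 111033144 to 111057664, plus strand, 21 exons) had 58.9, 52.8 and 57.8 CPM in ENR control and 83.4, 75.8 and 73.4 CPM in RANKL. Every RANKL library was above every control (log2 0.46 ± 0.09, edgeR adjusted p = 0.000428). Tars, the threonine enzyme, had 58.6, 58.9 and 60.1 CPM against 77.4, 71.3 and 67.8 CPM without overlap (log2 0.29 ± 0.09), and lost its call without RANKL replicate 1. Lars, the leucine enzyme of the multisynthetase complex, rose from 93.6 ± 6.54 to 114 ± 2.53 CPM (log2 0.29). Nars rose by 0.23 and its groups overlapped. Its call ended with DESeq2 and on leaving out ENR control replicate 1 or 3 or RANKL replicate 1 or 2. Counted by overlap, 4 synthetases lay wholly above and 14 wholly below their controls, where 32.2% and 31.2% of all genes tested did. Hars was among the 4 that lay above (log2 0.21, edgeR adjusted p = 0.0909) and was called only with GC offsets (with or without the replicate block) and without ENR control replicate 2.

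Several cytosolic enzymes gave nearly equal means in both groups. Gars was at 138 ± 11.9 and 130 ± 3.04 CPM, Kars at 109.5 ± 7.98 and 114 ± 3.67 CPM, and Eprs, which joins the glutamate and proline enzymes in 1 chain, at 197 ± 12.5 and 192 ± 1.71 CPM in ENR control and RANKL. The adjusted p was largest for Cars (0.883), Rars (0.831) and Dars (0.727) in edgeR. With GC offsets 7 cytosolic enzymes rose and 6 fell, with Hars, Mars and Vars added above and Dars (-0.35) and Eprs (-0.19) below. Over all genes tested 27.6% rose and 25.9% fell with those offsets. The mitochondrial counts were then 0 and 9, and 16 of 17 values were negative with a median of -0.28.

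Set beside the cytosolic enzyme for the same amino acid, the mitochondrial enzyme had the lower log2 fold change in 15 of 18 pairs, with a median difference of -0.53. Fars2 was paired with both Farsa and Farsb, and Eprs with both Ears2 and Pars2. With GC offsets the count was 13 of 18 pairs and the median difference -0.43. The pairs for asparagine and threonine were called in opposite directions, with Nars and Tars higher and Nars2 and Tars2 lower. The exceptions were phenylalanine against Farsb, isoleucine and tryptophan, where the cytosolic enzyme had the lower value. The leucine pair had the largest difference, -1.20 on the log2 scale, which rests on the Lars2 values described below. The methionine pair differed by -0.82 (-1.54 with GC offsets), the threonine pair by -0.75 and the alanine pair by -0.73 on the log2 scale.

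Cell type markers moved with this comparison. All 7 M cell markers rose, from a sum of 16.1 to 23.1 CPM in ENR control to 783 to 830 CPM in RANKL, and Gp2 and Sox8 were at 0 counts in all 3 controls. Of 5 proliferation markers 3 fell and 0 rose, with sums of 1253 to 1319 CPM in ENR control and 908 to 1113 CPM in RANKL. Of 4 stem cell markers Lgr5 and Smoc2 fell and Ascl2 rose, with sums of 1524 to 1924 CPM in ENR control and 423 to 673 CPM in RANKL. Of 5 Paneth markers 4 fell and 1 rose (sums of 505 to 865 and 367 to 383 CPM), and of 5 goblet markers 3 rose and 1 fell (994 to 1049 and 1918 to 2769 CPM). Of 6 enterocyte markers 4 rose and 2 fell (808 to 947 and 2312 to 3242 CPM), 3 of 4 tuft markers rose (85.8 to 114 and 116 to 147 CPM), and of the 2 enteroendocrine markers tested 1 fell. Their part in the synthetase results was not tested, and in bulk RNA fewer cells of a type and less RNA per cell cannot be told apart.

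**Figure D2:**
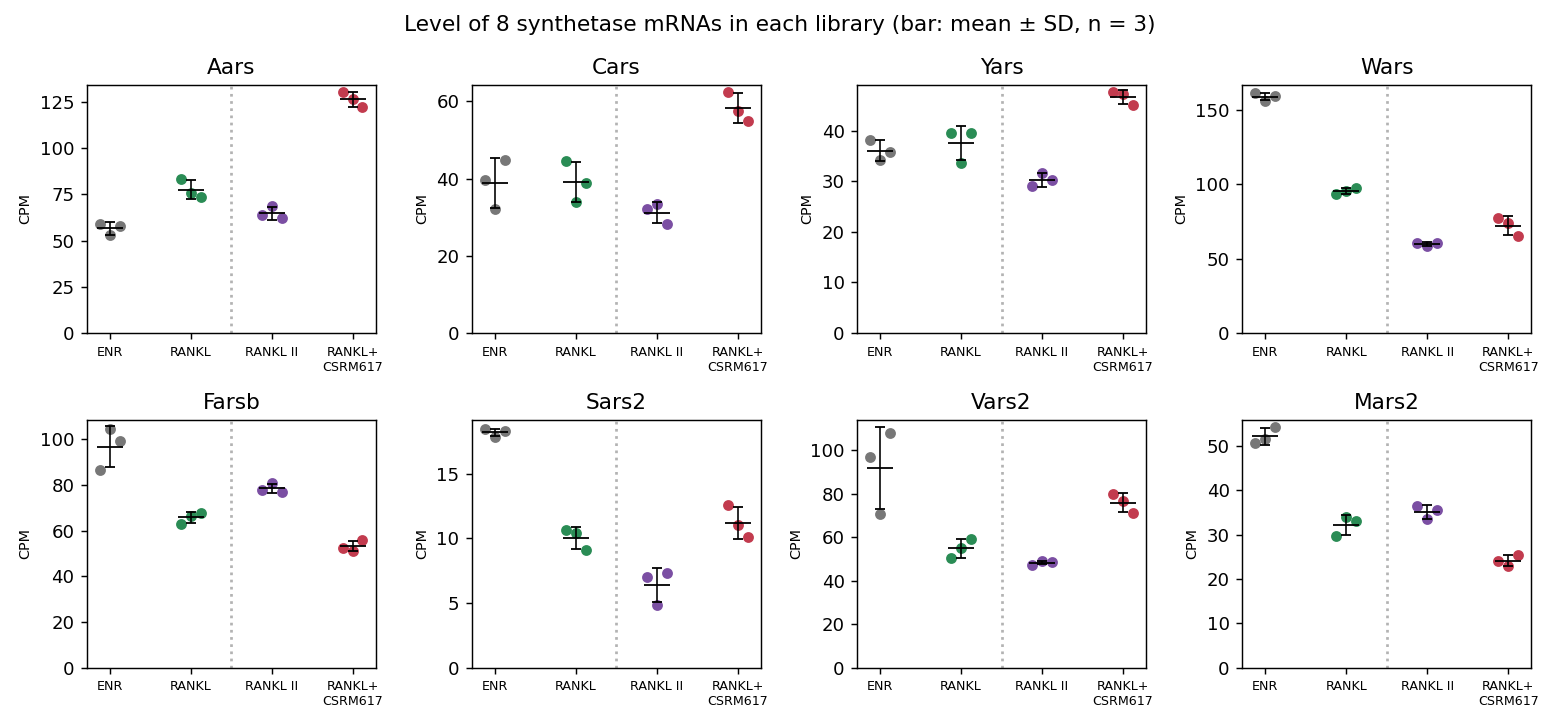
Level of 8 synthetase mRNAs in each library, in CPM on an axis from 0, with the mean and SD of 3 libraries as bars. The dotted line separates the 2 tables. Wars, Sars2, Vars2 and Mars2 fall from ENR control to RANKL, Aars, Cars and Yars are higher with CSRM617 than in RANKL II, and Farsb and Mars2 are lower in both comparisons.

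The second comparison asked what CSRM617 changed in organoids that also received RANKL. Synthetases were more often higher than lower. Of 37, 19 rose and 10 fell, where 35.2% of the 14167 genes tested rose and 36.2% fell. The median log2 fold change was 0.16 against -0.02 over all genes tested. The 29 that changed in either direction are near the background of 71.4% of all genes tested, so that total describes the comparison and not the synthetases. Cytosolic enzymes accounted for 13 rises and 5 falls of 20 (median 0.21). Mitochondrial enzymes had 6 rises and 5 falls of 17 (median 0.09), close to the background in each direction. Counted by overlap, 20 synthetases lay wholly above and 10 wholly below RANKL II, where 36.1% and 37% of all genes tested did. Summed cytosolic levels were 1919 ± 17.7 CPM in RANKL II and 2150 ± 24.8 CPM with CSRM617, and mitochondrial levels without Lars2 were 515 ± 2.26 and 528 ± 4.61 CPM.

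Aars again led the rises, with Cars next. Aars had 63.7, 68.7 and 62.0 CPM in RANKL II and 130, 127 and 122 CPM with CSRM617. The groups were far apart against their spread (log2 0.96 ± 0.05, edgeR adjusted p = 7.65e-23), a ratio of 1.95. Cars (chromosome 7, 143557230 to 143600090, minus strand, 23 exons), the cytosolic cysteine enzyme, had 32.0, 33.4 and 28.1 CPM in RANKL II and 62.5, 57.4 and 54.9 CPM with CSRM617 (log2 0.91 ± 0.07, edgeR adjusted p = 2.54e-16). With GC offsets these values were 0.76 for Aars and 0.70 for Cars. Yars, the tyrosine enzyme, had 29.0, 31.6 and 30.2 CPM against 47.7, 47.3 and 45.2 CPM (log2 0.62 ± 0.06, edgeR adjusted p = 7.41e-12). C77080, which overlaps Yars on the opposite strand, was also higher (log2 1.00), and its part in the Yars value was not tested. Hars rose by 0.53, and Yars and Hars gave 0.51 and 0.49 with GC offsets.

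Cytosolic enzymes were also counted by the ATF4 list and by the multisynthetase complex, and no difference between these groups was tested. Of the 12 on the ATF4 list, 9 rose and 2 fell (median 0.24), and of the 8 others 4 rose and 3 fell (median 0.07). Over all genes tested 35.2% rose and 36.2% fell. Gars and Lars were the members of the list that fell, and Lars (-0.09) lost its call in 9 of 15 alternatives. These were GC offsets (with or without the replicate block), no filter, DESeq2, limma and leaving out RANKL II replicate 1 or 3 or RANKL+CSRM617 replicate 1 or 2. Of the 5 with the promoter element shown above, Aars, Yars, Tars and Iars rose and Gars fell. Of the 12 cytosolic enzymes outside the complex, 10 rose and 2 fell (median 0.31), and of the 8 within it 3 rose and 3 fell (median -0.01). With GC offsets the complex enzymes had 4 rises and 1 fall (median 0.11), and those outside it 8 and 2 (median 0.20), where 32.8% of all genes tested rose and 30.7% fell. The ATF4 list then had 8 rises and 1 fall (median 0.24), and the 8 other cytosolic enzymes 4 and 2 (median 0.10). Sars (0.27), Wars (0.26), Tars (0.25), Nars (0.23), Mars (0.20), Kars (0.20) and Iars (0.16) made up the smaller rises on the log2 scale. The Wars, Mars and Farsa calls ended with GC offsets, at 0.04, -0.02 and 0.08. Ddit3, which overlaps Mars on the opposite strand, went from 6.52 ± 0.277 to 18.2 ± 0.794 CPM, and its part in the Mars value was not tested.

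Cytosolic falls were led by Dars and Farsb. Dars (chromosome 1, 128363707 to 128417368, minus strand, 16 exons), the aspartate enzyme, had 75.3, 71.4 and 73.3 CPM in RANKL II and 48.3, 45.4 and 51.3 CPM with CSRM617 (log2 -0.60 ± 0.05, edgeR adjusted p = 2.47e-13). Its transcripts have a GC content of 40.7%, the lowest of the cytosolic enzymes, and with GC offsets the value was 0.09 and no longer called. Farsb had 77.9, 80.8 and 76.8 CPM against 52.6, 51.2 and 55.7 CPM, without overlap (log2 -0.56 ± 0.05, edgeR adjusted p = 4.41e-13), and gave -0.34 with GC offsets, still called. Its opposite-strand partner Sgpp2 was lower here too (log2 -0.23). Farsa averaged 36.2 ± 1.32 CPM in RANKL II and 46.7 ± 1.95 CPM with the compound (log2 0.36). Farsb and Farsa, subunits of 1 enzyme, were thus called in opposite directions, while with GC offsets only Farsb was called. Gars fell by 0.23 on the log2 scale. Rars fell by 0.13, lost its call with DESeq2 and without RANKL+CSRM617 replicate 2, and with GC offsets was called higher at 0.26. Eprs (0.06, edgeR adjusted p = 0.126) and Qars (-0.07, edgeR adjusted p = 0.0746) did not pass, and with GC offsets Eprs was called higher at 0.38 and Qars lower at -0.20.

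The mitochondrial enzymes moved both ways. Aars2 (chromosome 17, 45506841 to 45520843, plus strand), the alanine enzyme, had 15.6, 14.1 and 12.8 CPM in RANKL II and 24.7, 26.1 and 24.2 CPM with CSRM617 (log2 0.83 ± 0.09, edgeR adjusted p = 3.44e-11). Sars2 had 7.05, 4.84 and 7.29 CPM against 12.5, 11.0 and 10.1 CPM (log2 0.78 ± 0.14, edgeR adjusted p = 2.27e-06). Vars2 had 47.5, 49.0 and 48.7 CPM against 80.1, 76.6 and 71.2 CPM (log2 0.65 ± 0.05, edgeR adjusted p = 2.42e-14). None of these 3 overlapped between groups, and with GC offsets they gave 0.36, 0.37 and 0.16, all still called. Mars2 had 36.6, 33.5 and 35.5 CPM in RANKL II and 24.0, 23.05 and 25.5 CPM with CSRM617 (log2 -0.54 ± 0.07, edgeR adjusted p = 5.59e-09). Its direction turned with GC offsets, to 0.36 and called higher. Yars2 had 14.3, 17.1 and 13.0 CPM against 10.6, 9.85 and 10.6 CPM without overlap (log2 -0.50 ± 0.11), and -0.60 with GC offsets. Iars2, at 163 ± 2.43 and 141 ± 2.89 CPM, fell by 0.22, and Rars2 fell by 0.31 and was at -0.0021 with GC offsets, no longer called. Fars2 (0.19), Cars2 (0.38) and Tars2 (0.29) passed the threshold and lost their calls with GC offsets. Fars2 also lost its call with no filter, the stricter filter and DESeq2, and without RANKL II replicate 2 or 3 or RANKL+CSRM617 replicate 1. Hars2 (0.13), Nars2 (-0.10) and Wars2 (0.08) were not called.

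Without GC offsets, pairs for the same amino acid differed less evenly than with RANKL. The mitochondrial enzyme then had the lower value in 11 of 18 pairs, with a median difference of -0.18. With GC offsets the counts were close, at 12 of 18 pairs here and 13 of 18 with RANKL. The median differences were then -0.19 and -0.43. For tyrosine, Yars rose and Yars2 fell, a difference of -1.13 on the log2 scale that was -1.11 with GC offsets. Opposite calls were also made for isoleucine (Iars higher, Iars2 lower), methionine (Mars higher, Mars2 lower) and phenylalanine (Fars2 higher, Farsb lower). Farsa, the other cytosolic subunit for phenylalanine, was called higher like Fars2. With GC offsets neither Fars2 nor Mars was called. The methionine difference turned from -0.74 to 0.38 with GC offsets. All 6 enterocyte markers rose with CSRM617, from sums of 3399 to 3459 CPM in RANKL II to 8400 to 8710 CPM, and 4 of 5 proliferation markers rose while Pcna fell, with sums of 314 to 323 and 533 to 552 CPM. Of 5 Paneth markers 4 rose and 1 fell (550 to 564 and 840 to 865 CPM), all 4 tuft markers rose (log2 0.47 to 0.76), and so did both enteroendocrine markers tested. M cell markers split into 3 rises and 4 falls (842 to 859 and 789 to 814 CPM), goblet markers into 3 and 2, and of 4 stem cell markers 2 rose and 1 fell. No marker of these lists was at 0 throughout, and their part in the synthetase results was not tested.

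Log2 fold changes varied with base composition in both comparisons. The part of this trend in any single synthetase value was not tested. Over all genes tested, Spearman's rho between log2 fold change and transcript GC content was -0.32 for RANKL and 0.584 for CSRM617. The median log2 fold change of genes at 40% to 45% GC was 0.25 with RANKL and -0.48 with CSRM617, and that of genes at 55% to 60% GC was -0.22 and 0.42. Over the 37 synthetases rho was -0.231 and 0.773. These are descriptions across genes that share libraries. GC offsets, which take each library's smooth trend with GC content out of the fit, brought rho over all genes to 0.00169 and 0.0134, and over the synthetases to 0.142 and 0.0154. The compartments had nearly equal medians of transcript GC, 50.2% for cytosolic and 51.0% for mitochondrial enzymes. Whether the trend arose in library preparation was not tested. Vars, at 59.9% GC the highest of the 37, rose by 0.59 with CSRM617 and by 0.10 with GC offsets, called in both.

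**Figure D3:**
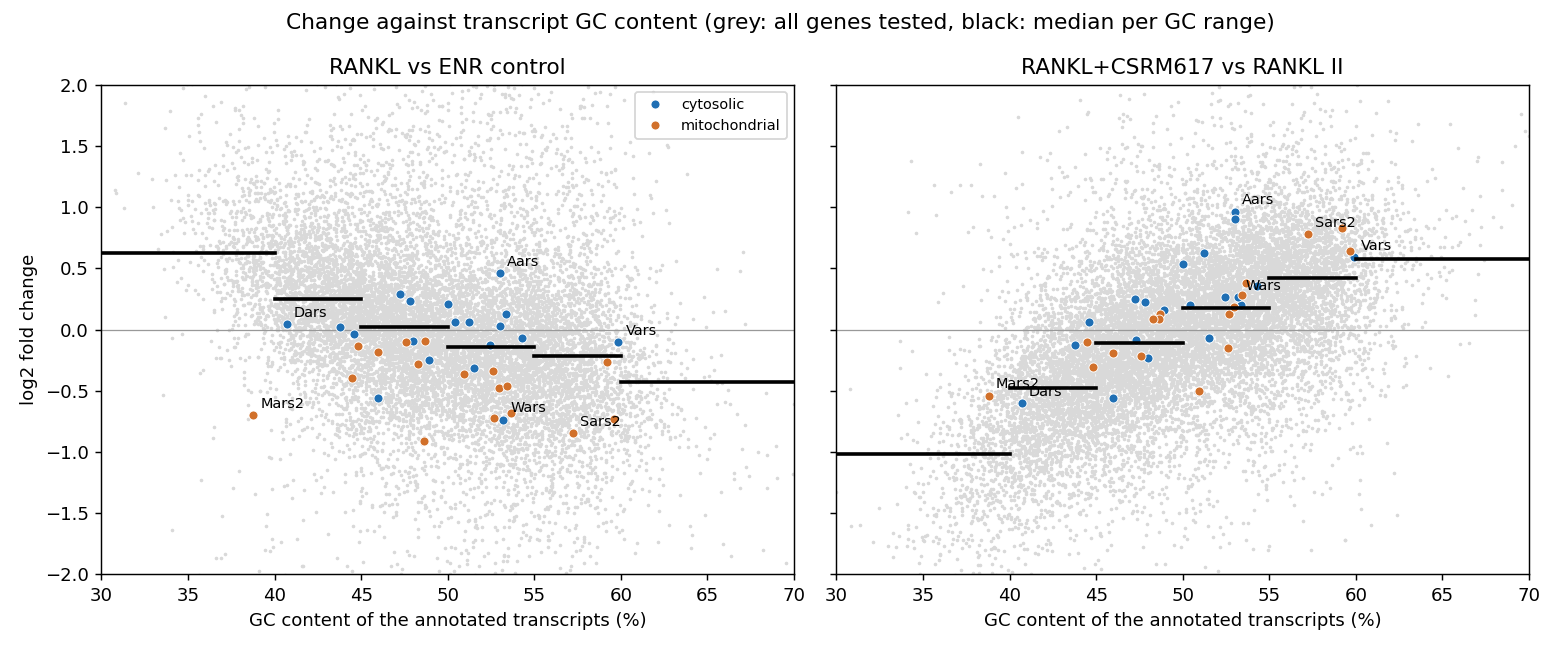
Log2 fold change against the GC content of each gene's transcripts in RANKL against ENR control (left) and RANKL+CSRM617 against RANKL II (right), with all genes tested in grey, their median per GC range as black bars, and synthetases in colour. The axes are cut at 30% and 70% GC and at log2 values of -2 and 2. The bars step down on the left and up on the right, and the synthetases follow them closely on the right, with Aars above the bar at its GC content in both.

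Lars2, the mitochondrial leucine enzyme (chromosome 9, 123366927 to 123462666, plus strand, 21 exons), was set apart by single libraries. It had 120, 51.7 and 52.8 CPM in ENR control and 35.5, 42.9 and 40.4 CPM in RANKL. All RANKL libraries were below the controls, and ENR control replicate 1 was far above the other controls (log2 -0.91 ± 0.36, edgeR adjusted p = 0.0786). Without that library the difference was -0.41 with an edgeR adjusted p of 0.0102, in a range of 0.0102 to 0.28 over all 15 alternatives. In the second table it had 48.9, 50.9 and 96.7 CPM in RANKL II and 79.1, 75.1 and 61.2 CPM with CSRM617 (log2 0.09 ± 0.34, edgeR adjusted p = 0.836). Without RANKL II replicate 3 it was 0.52 with an edgeR adjusted p of 0.000392, in a range of 0.000392 to 0.95 over the alternatives. A single library thus decided the call in each comparison.

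**Figure D4:**
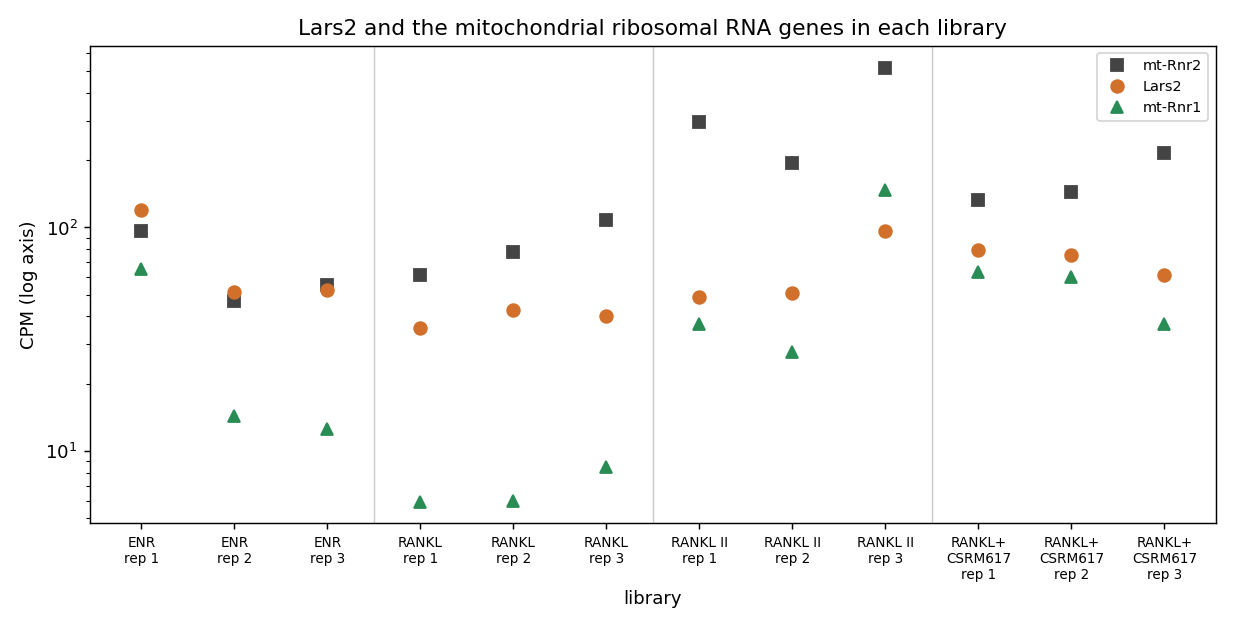
Level of Lars2 and of the mitochondrial ribosomal RNA genes mt-Rnr1 and mt-Rnr2 in each of the 12 libraries, in CPM on a log axis. ENR control replicate 1 and RANKL II replicate 3 are the highest of their groups for all 3 genes.

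Lars2 may collect ribosomal reads, and its level was therefore set beside those of ribosomal loci. Within ENR control and RANKL II it did not follow Gm26917 and Gm42418. Their share was 31.0% in ENR control replicate 1 and 35.5% in replicate 3. It was 6.44% in RANKL II replicate 3 against 6.64% and 6.71% in the other replicates. Between the compared groups the means moved in the same direction. In RANKL Lars2 was at 35.5 to 42.9 against 51.7 to 120 CPM in ENR control. The loci held 9.71% to 10.7% there against 21.9% to 35.5%. With CSRM617 the loci held more than in RANKL II, and the Lars2 mean was 71.8 ± 9.37 against 65.5 ± 27.1 CPM, within its spread. The mitochondrial 12S gene mt-Rnr1 had 64.9, 14.4 and 12.6 CPM in ENR control and 37.0, 27.7 and 147 CPM in RANKL II, in both groups highest in the library with the highest Lars2. The other groups did not share this order. In RANKL, Lars2 was highest in replicate 2, and mt-Rnr1 (8.53 CPM) and mt-Rnr2 (108 CPM) in replicate 3. With CSRM617, replicate 3 had the lowest Lars2 and mt-Rnr1 (36.9 CPM) and the highest mt-Rnr2 (215 CPM). Of 10852 genes above 2 CPM in all 12 libraries, 4 exceeded the higher of the other replicates by over 1.5 times in ENR control replicate 1 and by over 1.4 times in RANKL II replicate 3. These were Lars2 (2.27 and 1.90 times), mt-Rnr1 (4.51 and 3.99), mt-Rnr2 (1.76 and 1.74) and Gm23935 (1.58 and 1.47), with ratios that were chosen after the values were seen. No word of 25 bases in any annotated transcript of the 37 synthetases occurred in mt-Rnr1, mt-Rnr2, Gm26917 or Gm42418 on either strand. The part of ribosomal RNA in the Lars2 counts was not tested further.

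Lars2 also weighed on the share of synthetase counts that was mitochondrial. This share was 25.9% ± 1.60 in ENR control and 21.3% ± 0.822 in RANKL, and 23.8% ± 0.945 and 19.9% ± 0.703 without Lars2. In RANKL II it was 23.2% ± 0.783 and with CSRM617 21.8% ± 0.113, and 21.1% ± 0.228 and 19.7% ± 0.157 without Lars2. The shares of the compared groups did not overlap between libraries in either comparison, with or without Lars2. Lars2 made up 7.11% to 16.1% of the mitochondrial counts in the first table and 8.70% to 15.9% in the second.

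The comparisons share no library, and their calls can be set side by side. Aars, Nars and Tars were higher in both, and Farsb, Mars2 and Yars2 lower in both, of which Mars2 turned with GC offsets in the second. Of these, only Aars and Farsb held their calls under all 15 alternatives in both comparisons. With RANKL the calls of Nars, Tars and Yars2 changed in 5, 1 and 6 of the 15. Cars2, Fars2, Iars, Sars2, Tars2, Vars2 and Wars were lower with RANKL and higher with CSRM617, and Lars was higher and then lower. Eprs, Hars2, Lars2, Pars2 and Wars2 passed in neither. How many of all genes tested had each pair of calls was not counted, so these groups have no background beside them. Over all genes the trend with GC content had opposite signs in the comparisons, and its part in these groups was not tested. Of the 7 that fell and then rose, Cars2, Fars2, Tars2 and Wars lost the second call with GC offsets. Synthetases fall into classes by the fold of their catalytic domain. Of the 18 class I enzymes, 1 rose and 8 fell with RANKL and 8 rose and 6 fell with CSRM617. Of the 18 class II enzymes, 3 rose and 5 fell with RANKL and 11 rose and 4 fell with CSRM617. Over all genes tested 28.7% rose and 28% fell with RANKL, and 35.2% rose and 36.2% fell with CSRM617, so several of these counts lie near the background, and no difference between the classes was tested. Eprs holds a domain of each class.

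The genes that work beside the synthetases were counted in the same way. Of the 3 scaffolds of the multisynthetase complex, Aimp2 fell with RANKL (log2 -0.42) and Eef1e1 fell with CSRM617 (log2 -0.68, and -0.39 with GC offsets). With GC offsets Aimp2 lost its call with RANKL (-0.27) and was called lower with CSRM617 (-0.29), while Aimp1, not called at first, was called lower with RANKL (-0.39) and higher with CSRM617 (0.52). Among 12 other genes of tRNA charging, proofreading and export, 2 rose and 6 fell with RANKL, where the background was 28.7% and 28%. Of the 11 tested with CSRM617 1 rose and 5 fell, where it was 35.2% and 36.2%. Tarsl2, a threonine enzyme of the cytosol whose symbol falls outside the rule, went from 15.9 ± 0.774 to 5.87 ± 0.462 CPM with RANKL (log2 -1.43, edgeR adjusted p = 1.18e-06), where Tars rose. Qrsl1, a subunit of the mitochondrial amidotransferase that makes glutaminyl-tRNA, rose in both (log2 0.63 and 0.34), while Gatc, another subunit, fell in both (-0.43 and -0.31). Sepsecs, which completes selenocysteinyl-tRNA, fell by 0.81 with CSRM617, and Pstk, which acts before it, by 0.63. With GC offsets these values were -0.42 and -0.30, both still called.

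Other genes of the ATF4 and amino acid response were described from a list of 24, of which 23 were tested in each comparison. With RANKL 3 rose and 11 fell (median log2 -0.29), beside a background of 28.7% and 28%. With CSRM617 9 rose and 4 fell (median 0.10), beside 35.2% and 36.2%. Asns, the asparagine synthetase that supplies amino acid and is no tRNA enzyme, had 51.6, 53.4 and 40.0 CPM in ENR control and 24.5, 25.3 and 22.5 CPM in RANKL (log2 -1.01). It also fell with CSRM617, from 31.9 ± 1.53 to 18.3 ± 0.839 CPM (log2 -0.80), so in both comparisons it moved opposite to Aars. With CSRM617 Ddit3 (log2 1.49), Sesn2 (0.90) and Atf4 itself (0.46) rose, and the cystine transporter gene Slc7a11 fell (-1.75). With GC offsets the list had 6 rises and 9 falls with CSRM617 (background 32.8% and 30.7%) and 5 and 6 with RANKL (27.6% and 25.9%), so its balance in the second comparison turned. Ddit3 was then at 1.35, Sesn2 at 0.45, Atf4 at 0.14 and Slc7a11 at -1.21 with CSRM617, all still called.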

How the data were processed

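Paired reads of 42 bp came from 12 libraries. Raw read counts per gene symbol were deposited by the authors in 2 tables, 1 per comparison, made per the submitters' processing notes with STAR, HTSeq 0.13.5 and DESeq2 1.34.0 on mm10 (GRCm38). No source used here gives the annotation or strand setting. The normalized tables the authors deposited are on a log2 scale and were used only in an alternative. Each table was fitted separately with edgeR 4.0.16 in R 4.3.3 (quasi-likelihood, robust, TMM, filterByExpr, 3 against 3 libraries, no covariate), with Benjamini-Hochberg adjustment over all genes tested and a threshold of 0.05. Levels are CPM after TMM scaling, and SE is the size of the fold change on the log2 scale, without shrinkage, divided by the root of the F statistic. The script was tested on simulated data. A GENCODE annotation of GRCm38 gave coordinates, transcript length and GC content. GC offsets used a smooth curve per library (span 0.3). The members and lists were chosen with earlier results of these data known. The rule for named genes took, per comparison, the 6 largest rises and 6 largest falls, 3 genes with the largest and 3 with the smallest p that missed the threshold, 9 fixed genes (Lars2, Gars, Kars, Eprs, Wars, Iars, Iars2, Farsa, Farsb) and pairs called in opposite directions. Further members are named where a count or a list turns on them, and 1 mitochondrial member, counted in the totals, is not reported singly here. Alternatives were RLE factors, scaling without ribosomal RNA loci and mitochondrial genes, no filter, a stricter filter (50 counts in 3 libraries), GC offsets, a replicate block, DESeq2 1.42.0, limma 3.58.1 and leaving out each library.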

Additional observations from a re-analysis of the deposited data

How the results depend on the processing

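Of the 17 synthetase calls with RANKL, 12 held under all 15 alternatives, and of the 29 with CSRM617, 17 did. With GC offsets, alone or with the replicate block, the synthetases higher with RANKL went from 4 to 7, those lower from 13 to 15, and those lower with CSRM617 from 10 to 6. Leaving out each library gave 2 to 5 higher with RANKL (2 without RANKL replicate 1) and 10 to 14 lower (10 without RANKL replicate 2), and 18 to 20 higher and 7 to 10 lower with CSRM617. Among the signs that turned with RANKL, all in genes not called at first, were those of Dars (-0.35 with GC offsets and -0.35 with the block added), Rars (-0.17 and -0.17) and Farsa (0.12 and 0.12), and with GC offsets also Aars2 (0.03), Sars (0.03) and Vars (0.22, called higher). Leaving out 1 library at a time gave -0.12 to 0.13 for Cars, -0.033 to 0.18 for Dars, -0.036 to 0.096 for Rars and -0.082 to 0.0071 for Eprs. With CSRM617, GC offsets, and then the block with them, turned Dars (0.090 and 0.093), Fars2 (-0.021 and -0.013), Mars (-0.024 and -0.023), Mars2 (0.36 and 0.36) and Nars2 (0.23 and 0.22), and the block with them also Rars2 (0.0021). GC offsets also turned Ears2 (-0.06), Lars (0.03) and Rars (0.26). Leaving out 1 library at a time gave -0.076 to 0.52 for Lars2, lowest without RANKL II replicate 1 and highest without replicate 3. Mitochondrial shares without Lars2 were 23.8% (ENR control), 19.9% (RANKL alone, first table), 21.1% (RANKL alone, second table) and 19.7% (with CSRM617). The labels number experiments without saying that a number is shared between groups, and same-numbered libraries did not deviate together (r = 0.00407, 0.0569 and -0.00689 with RANKL, -0.0111, 0.0127 and 0.00453 with CSRM617). The replicate block alone left the synthetase counts at 4 higher and 13 lower with RANKL and at 19 and 10 with CSRM617. DESeq2 gave 3 higher and 11 lower, and 18 and 7. Depth limits the lowest members most, with Pars2 at 37 to 95 counts in the ENR control libraries. The causes of these changes were not tested.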
